A study of Mus musculus with 6 samples.

Results

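The genes described here were 8 genes of necroptosis and of apoptosis started at death receptors, matched by Ensembl identifier: Mlkl, Ripk3, Zbp1, Casp8, Fadd, Casp6, Fas and Tnfrsf10b. The 8 genes, and the lists of other genes below, were chosen by name with earlier results of these data known. All 8 were found among the 55414 genes of the count table, and all 8 were among the 13026 genes with enough counts to be tested. They were measured by RNA sequencing in Paneth cells (PCs), granule-rich secretory cells at the bottom of the crypts of the small intestine, which had been purified with a cell sorter from C57BL/6J mice. Every library was labelled as an Ifnar1 knockout. The gene encodes a subunit of the receptor for type I interferons, and the controls carried the same genotype label. The small intestine was taken 15 h after an injection of tumour necrosis factor (TNF, 3 libraries) or of phosphate-buffered saline (PBS, 3 libraries). The labels number the libraries of a group as replicates and do not say whether each came from a separate mouse or from a pool, so the p-values measure the spread between these libraries, which may be technical in part. The labels give no dose, sex or age, and there was no library with intact Ifnar1 to compare with.

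Death receptors such as FAS, TNFR1 and the TRAIL receptor (Tnfrsf10b) recruit the adaptor FADD, directly or through other adaptors. FADD binds and activates caspase-8, and caspase-8 then cleaves executioner caspases so that the cell dies by apoptosis. Where caspase-8 is held back, the kinases RIPK1 and RIPK3 form a complex that phosphorylates the pseudokinase MLKL, which permeabilises the plasma membrane, a lytic death called necroptosis. ZBP1, a sensor of Z-form nucleic acids, can activate RIPK3 without a death receptor. Caspase-8 also cleaves RIPK1 and RIPK3, so the enzyme that starts apoptosis restrains necroptosis. Several of these genes are known targets of interferon signalling, and Fas and Tnfrsf10b are known targets of p53.

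Depth was alike in the 6 libraries, at 12747484 to 17039511 counts. Across the tested genes, TNF replicate 1 correlated less with the other TNF libraries (Pearson r 0.883, on log2 counts scaled to a common library total, CPM, and 0.884) than with the PBS libraries (0.937 to 0.945), whereas TNF replicates 2 and 3 correlated at 0.954. TNF replicate 1 stayed in its labelled group, and the fold changes of the 8 genes and of the named pathway genes are also given without it. The library was singled out by its values in these same data. The p-values and the counts of genes passing without it are therefore descriptions. The PC marker list (12 genes, among them Lyz1, Mmp7 and alpha-defensins) summed to 391941 to 481685 CPM after PBS and 285815 to 655690 CPM after TNF. The immune cell list of 25 markers summed to 22.4 to 55.0 CPM after PBS and 38.0 to 45.8 CPM after TNF, with most of it from Lyz2 and Ptprc. Lyz2 is a close copy of Lyz1 and may hold some of its reads. S100a9, an immune marker with 0 counts in every PBS library, had 0, 26 and 13 counts over TNF replicates 1 to 3. It was too scarce to be tested over all 6 libraries and was higher past 5% without TNF replicate 1. S100a8 and Gzma had a few counts in TNF replicates 2 and 3 only, and Adgre1 in PBS replicates 2 and 3 only. Of the immune markers, 7 (among them Cd4, Cd8a, Cd3g, Nkg7, Gzmb and Jchain) had no count in any library, and the 12 endothelial, stromal and red cell markers summed to at most 2.13 CPM. Of other epithelial lists, the 14 enterocyte markers summed to 598 to 702 CPM after PBS and 312 to 460 CPM after TNF. Of the 10 tested, 4 were lower at an unadjusted edgeR p under 0.05, against 4% of all tested genes. The 9 goblet cell markers summed to 12460 to 13749 CPM after PBS and to 15898, 7990 and 12154 CPM over TNF replicates 1 to 3. Of these, 5 were lower past 5% without TNF replicate 1 (Fcgbp, Tff3, Zg16, Clca1 and Klk1), against 5.4% of all genes. Muc2 and Spdef went the other way in that fit, with log2 fold changes of 0.46 and 0.34, and did not pass. Of the PC markers, 3 (Clps, Habp2 and Pnliprp2) were lower past 5% in the same fit, again against 5.4% of all genes. Mmp7, Lyz1 and Cd24a had log2 fold changes of 0.80, 0.05 and 0.02 there and did not pass. The 10 stem cell markers summed to 5064 CPM in TNF replicate 1, 1239 and 1069 CPM in TNF replicates 2 and 3 and 2944 to 3587 CPM in the PBS libraries. The 10 tuft cell markers varied within PBS, at 477, 1355 and 1696 CPM, and summed to 565, 1134 and 631 CPM over TNF replicates 1 to 3. For the 11 enteroendocrine markers the sums were 58.1 to 191 CPM after PBS and 41.7 to 125 CPM after TNF. The part of these cells in the results below was not tested. In RNA from pooled cells, a change in the share of a cell type and a change in RNA per cell cannot be told apart. Ifnar1 itself had 7.87 ± 2.35 CPM (SD, n = 3) in PBS and 8.56 ± 3.83 CPM after TNF (edgeR adjusted p 0.925), from 61 to 159 counts per library. Transcripts of the gene were thus detected in every library. The part of the gene that was deleted is not given in the sources used here, and with no library of intact Ifnar1 these counts do not check the knockout.

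The comparison asked which of the 8 genes differed in PCs after TNF. Values are CPM on library sizes scaled by the trimmed mean of M-values (TMM), as mean ± SD over 3 libraries, and fold changes are log2 values of TNF over PBS. No gene passed the threshold of an adjusted p under 0.05 (5%) with edgeR over all 6 libraries, among the 8 or among the 13026 tested genes (0% called). The executor of necroptosis, Mlkl, had the largest difference of the 8, with higher values in the 3 TNF libraries than in any PBS library. Mlkl, Ripk3, Zbp1 and Casp8 passed 5% without TNF replicate 1, and all 4 were higher in TNF, against 9.1% of 13660 genes called higher. Leaving out any other single library gave 0 of the 8. Fadd and Casp6 had small differences in either analysis.

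Mlkl (ENSMUSG00000012519, GRCm39 chromosome 8, 112036296 to 112065168) was scarce in control PCs. It had 1.23, 1.13 and 1.47 CPM over PBS replicates 1 to 3, from 17, 17 and 20 counts, and 2.63, 14.1 and 11.6 CPM over TNF replicates 1 to 3, from 31, 288 and 144 counts. The groups did not overlap, but TNF replicate 1 lay much nearer to the PBS libraries than to the other TNF libraries. The mean was 1.28 ± 0.173 CPM after PBS and 9.44 ± 6.02 CPM after TNF (log2 fold change 2.88 ± 0.59 SE, with an adjusted p of 0.270 from edgeR). This corresponds to a 7.39-fold difference with a 95% interval of 2.92 to 18.7. Mlkl had the 35th smallest p-value and the 56th largest fold change of the 13026 genes. Without TNF replicate 2 the log2 fold change was 2.44, and without TNF replicate 1 it was 3.34 ± 0.35 SE with an edgeR adjusted p of 0.000154. With all libraries DESeq2 gave an adjusted p of 0.000411, and across the alternatives the adjusted p ran from 2.82e-06 to 0.897. An exon of Mlkl overlaps an antisense transcript (Gm63800), and the use of strand in counting is not given in the sources used here.

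Ripk3 (ENSMUSG00000022221, chromosome 14, 56022452 to 56026324), the kinase that phosphorylates MLKL, was already present in control PCs. It had 10.2, 8.34 and 9.40 CPM after PBS and 8.41, 30.3 and 21.1 CPM over TNF replicates 1 to 3. TNF replicates 2 and 3 were above all PBS libraries, and TNF replicate 1 lay within them. The mean was 9.31 ± 0.918 CPM after PBS and 19.9 ± 11.0 CPM after TNF (log2 fold change 1.1 ± 0.41 SE, with an adjusted p of 0.334 from edgeR). Without TNF replicate 1 it was 1.49 ± 0.24 SE, and the edgeR adjusted p of 0.00208 compares with 0.00208 to 0.911 across the alternatives. It was 0.63 without TNF replicate 2.

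Zbp1 (ENSMUSG00000027514, chromosome 2, 173033815 to 173060724) was also present in control PCs, at 6.71, 8.54 and 8.96 CPM after PBS. In TNF replicates 1 to 3 it had 4.93, 21.0 and 16.2 CPM. TNF replicate 1 was thus below every PBS library and TNF replicates 2 and 3 were above every PBS library. The mean was 8.07 ± 1.20 CPM after PBS and 14.0 ± 8.24 CPM after TNF (log2 fold change 0.80 ± 0.45 SE, with an adjusted p of 0.50 from edgeR). Without TNF replicate 1 it was 1.22 ± 0.25 SE, and the edgeR adjusted p of 0.00860 compares with 0.00860 to 0.922 across the alternatives. The fold change was smaller, at 0.35, when TNF replicate 2 was left out.

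**Figure D1:**
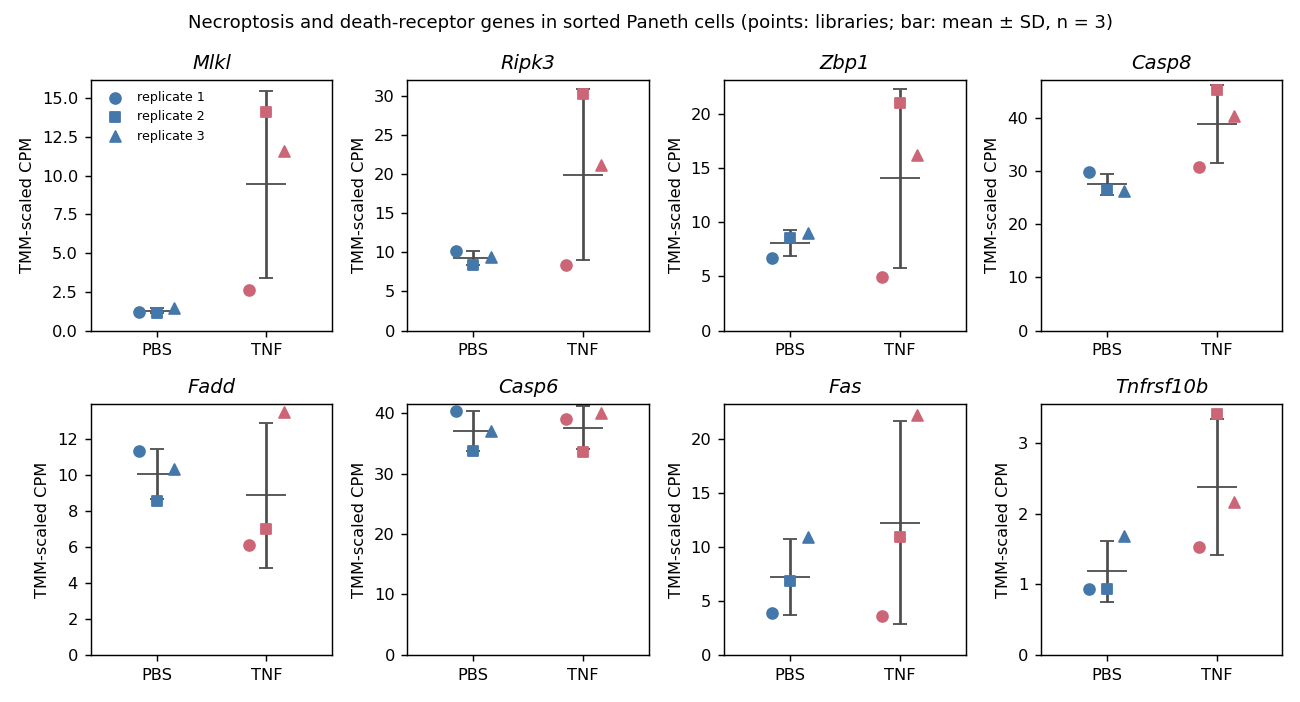
TMM-scaled CPM (linear axes from 0) of the 8 genes in each library, with PBS in blue and TNF in red, a marker shape for each replicate number, and the mean ± SD of 3 libraries as bars. TNF replicate 1 (red circle) lies near or below the PBS libraries for Ripk3, Zbp1 and Fas, while all 3 TNF libraries lie above PBS for Mlkl and Casp8. For Casp8 only the scaling places TNF replicate 1 above PBS.

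The promoters of Zbp1 and Ripk3 are shown because both genes were higher in TNF replicates 2 and 3 but differ in the motifs they hold. Each is the 250 bases before the start of the canonical transcript, read from GRCm39 on the minus strand and written 5′ to 3′, with capitals for motif matches.
Zbp1 promoter, chr2:173060725-173060974: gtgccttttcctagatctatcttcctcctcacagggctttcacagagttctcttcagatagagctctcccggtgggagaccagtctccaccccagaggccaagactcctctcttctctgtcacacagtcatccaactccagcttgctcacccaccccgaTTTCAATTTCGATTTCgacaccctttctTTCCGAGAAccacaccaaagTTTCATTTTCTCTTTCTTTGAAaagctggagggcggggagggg
Ripk3 promoter, chr14:56026325-56026574: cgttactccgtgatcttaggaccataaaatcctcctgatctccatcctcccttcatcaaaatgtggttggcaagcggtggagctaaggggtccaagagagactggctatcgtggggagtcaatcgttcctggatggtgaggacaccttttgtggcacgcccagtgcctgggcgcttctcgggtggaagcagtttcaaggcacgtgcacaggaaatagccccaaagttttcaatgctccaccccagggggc
The motifs searched, on both strands, were the core of the interferon-stimulated response element (ISRE, the letters GAAA, then any pair of bases, then GAAA), the gamma-activated site bound by STAT dimers (GAS, TTCNNNGAA) and the NF-kB site (kB). The Zbp1 window held 4 ISRE cores, in 2 overlapping pairs whose first bases lie 91 and 85, and 43 and 37, bases before the start. It also held 2 GAS matches, 63 and 30 bases before the start, and the latter overlaps an ISRE core. Of 21738 promoters of protein-coding genes of the same length, 3.33% held an ISRE core, 7.7% a GAS and 4.23% a kB site. The Ripk3 window held none of the 3 motifs. Among the other genes, the Mlkl window held 1 ISRE core at its far end, 250 bases before the start, in a run of pyrimidines, and the Fas window held 1 GAS match 93 bases before the start. The windows of Casp8, Fadd, Casp6 and Tnfrsf10b held none, and no kB site was found in any of the 8. A match is a description of the letters and not a binding site, and other start sites were not searched.

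Casp8 (ENSMUSG00000026029, chromosome 1, 58834375 to 58886665), the apical caspase of the death receptors, had 29.8, 26.4 and 26.3 CPM after PBS and 30.8, 45.3 and 40.3 CPM over TNF replicates 1 to 3. On these scaled values the groups did not overlap, although TNF replicate 1 exceeded PBS replicate 1 only slightly. The counts were 413, 395 and 358 after PBS and 363 in TNF replicate 1. Only the scaling places that library above PBS, and its scaling factor of 0.798 was the lowest of the 6 libraries. The mean was 27.5 ± 2.00 CPM after PBS and 38.8 ± 7.32 CPM after TNF (log2 fold change 0.50 ± 0.21 SE, with an adjusted p of 0.393 from edgeR). The 95% interval of the fold change was 1.02 to 1.97. Without TNF replicate 1 the log2 fold change was 0.66 ± 0.19 SE, and the edgeR adjusted p of 0.0380 compares with 0.0380 to 0.919 across the alternatives. Leaving out TNF replicate 2 instead gave 0.34.

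Fadd (ENSMUSG00000031077, chromosome 7, 144131055 to 144136211), the adaptor that couples receptors to caspase-8, did not follow Casp8. It had 11.3, 8.54 and 10.4 CPM after PBS and 6.12, 7.0 and 13.5 CPM over TNF replicates 1 to 3. TNF replicates 1 and 2 were below every PBS library and TNF replicate 3 was above, so the TNF libraries lay on both sides of PBS. The mean was 10.1 ± 1.41 CPM after PBS and 8.88 ± 4.05 CPM after TNF (log2 fold change -0.18 ± 0.34 SE, 95% interval -0.96 to 0.59, edgeR adjusted p 0.857). The sign turned without TNF replicate 1 (0.04). Exons of Fadd overlap 2 antisense transcripts, Faddos and Gm72893.

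Casp6 (ENSMUSG00000027997, chromosome 3, 129695069 to 129707752), a caspase grouped with the executioners, was close to level across the 6 libraries. It had 40.3, 33.7 and 37.0 CPM after PBS and 39.1, 33.5 and 40.1 CPM over TNF replicates 1 to 3, and the groups overlapped widely. The mean was 37.0 ± 3.31 CPM after PBS and 37.6 ± 3.55 CPM after TNF (log2 fold change 0.02 ± 0.19 SE, with an adjusted p of 0.973 from edgeR). The 95% interval of the fold change was 0.754 to 1.36, and the sign of a difference this small changed with the scaling and with the libraries left out (0.01 without TNF replicate 1). Exons of Casp6 overlap those of Mcub on the opposite strand, which had 12.2 ± 5.75 CPM after PBS and 14.5 ± 7.18 CPM after TNF.

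Of the 2 receptors among the 8, Fas (ENSMUSG00000024778, chromosome 19, 34268001 to 34305173) varied most within a group. It had 3.90, 6.87 and 10.9 CPM after PBS and 3.57, 11.0 and 22.3 CPM over TNF replicates 1 to 3. TNF replicate 1 was the lowest of the 6, TNF replicate 2 was level with PBS replicate 3, and only TNF replicate 3 stood clearly above PBS. The mean was 7.24 ± 3.54 CPM after PBS and 12.3 ± 9.44 CPM after TNF (log2 fold change 0.76 ± 0.59 SE, with an adjusted p of 0.633 from edgeR). It was 0.02 without TNF replicate 3, 0.46 without PBS replicate 1 and 1.21 ± 0.41 SE without TNF replicate 1, where the edgeR adjusted p of 0.0732 was the lowest of a range of 0.0732 to 0.999 across the alternatives.

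Tnfrsf10b (ENSMUSG00000022074, chromosome 14, 70004916 to 70021860), the mouse TRAIL receptor, was scarce, with 13 to 23 counts after PBS and 18 to 70 counts after TNF. It had 0.938, 0.934 and 1.69 CPM after PBS and 1.53, 3.42 and 2.17 CPM over TNF replicates 1 to 3. TNF replicates 2 and 3 were above PBS, and TNF replicate 1 was below PBS replicate 3. The mean was 1.19 ± 0.435 CPM after PBS and 2.38 ± 0.963 CPM after TNF (log2 fold change 1.01 ± 0.59 SE, with an adjusted p of 0.513 from edgeR). It did not pass without TNF replicate 1 either (1.26 ± 0.63 SE), where the edgeR adjusted p of 0.218 was the lowest of a range of 0.218 to 0.92 across the alternatives. The log2 fold change was 0.61 without TNF replicate 2.

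The counts that follow are descriptions and not a test of the set, since the 8 genes were chosen with earlier results of these data known. At an unadjusted edgeR p under 0.05, 3 of the 8 genes (Mlkl, Ripk3 and Casp8) were higher in TNF and 0 lower, where 8.25% of all tested genes were higher and 4% lower. For 2 of the 8 (Mlkl and Casp8) all TNF libraries were above all PBS libraries and for 0 below, against 9.07% and 7.82% of tested genes. Only the scaling places TNF replicate 1 above PBS for Casp8. For 6 of the 8, all but Fadd and Casp6, TNF replicates 2 and 3 were both above PBS and for 0 both below, against 24.1% and 22%. Fas is among the 6 only narrowly, with 10.96 CPM in TNF replicate 2 and 10.95 CPM in PBS replicate 3. DESeq2 called 1 of the 8 (Mlkl), against 1.46% of its genes called higher. Limma-voom with a weight for each library called 3 (Mlkl, Ripk3 and Casp8), against 7.06%, and edgeR with no low-count filter called 2 (Mlkl and Ripk3), against 2.1%. Plain limma-voom called 0 of the 8 and 0% of all genes, with 2 of the 8 at an unadjusted p under 0.05, against 12.8%, and edgeR with the replicate number as a block had 1, against 10.7%. Leaving out TNF replicate 1, 4 of the 8 passed 5% with edgeR, against 9.1% of 13660 genes called higher. The median log2 fold change of the 8 was 0.78 over all libraries and 1.22 without TNF replicate 1, where that of all tested genes was -0.000587 and -0.00707. Per library, TNF replicate 1 had 2 of the 8 genes above the PBS range, 3 below (Zbp1, Fadd and Fas) and 3 within. TNF replicate 2 had 6 above, Fas only narrowly, and 2 below (Fadd and Casp6), and TNF replicate 3 had 7 above and 1 within (Casp6). Of all tested genes, 28.2% were above, 26.6% below and 45.2% within the PBS range in TNF replicate 1, 33.3% were above and 31.1% below it in TNF replicate 2, and 33.9% were above and 33.6% below it in TNF replicate 3.

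**Figure D2:**
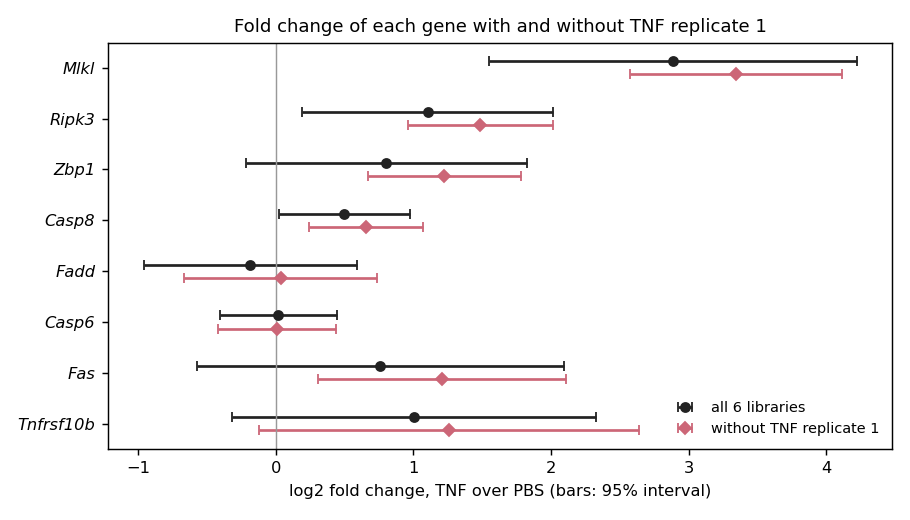
Log2 fold change of TNF over PBS for the 8 genes with 95% intervals from edgeR, over all 6 libraries (black circles) and without TNF replicate 1 (red diamonds). The interval of Mlkl lies above 0 in both and narrows from 1.55 to 4.22 to 2.58 to 4.11, whereas those of Fadd and Casp6 are centred near 0.

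Levels of different genes were compared per kb of canonical transcript. In PBS the order was Casp6 (25.3 ± 2.26 CPM per kb), Casp8 (10.03 ± 0.728), Ripk3 (4.91 ± 0.485), Fas (4.87 ± 2.38), Zbp1 (4.04 ± 0.601), Fadd (2.57 ± 0.361), Tnfrsf10b (0.373 ± 0.137) and Mlkl (0.306 ± 0.0415). The PBS ranges of Ripk3, Fas and Zbp1 overlapped, as did those of Fas and Fadd and those of Tnfrsf10b and Mlkl, so these neighbours cannot be ordered. Casp6 lay above 91.6% of tested genes and Mlkl above 4.31%. In TNF the mean of Mlkl was 2.26 ± 1.44 CPM per kb, above 36.5% of tested genes and close to Fadd at 2.27 ± 1.03. The place of Casp6 depends on its transcript, since with the length of all its exons (5589 instead of 1461 bases) it had 6.62 CPM per kb, below Casp8 at 8.92. The order of the last pair depends on it too, since with all exons Tnfrsf10b had 0.208 and Mlkl 0.220 CPM per kb.

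**Figure D3:**
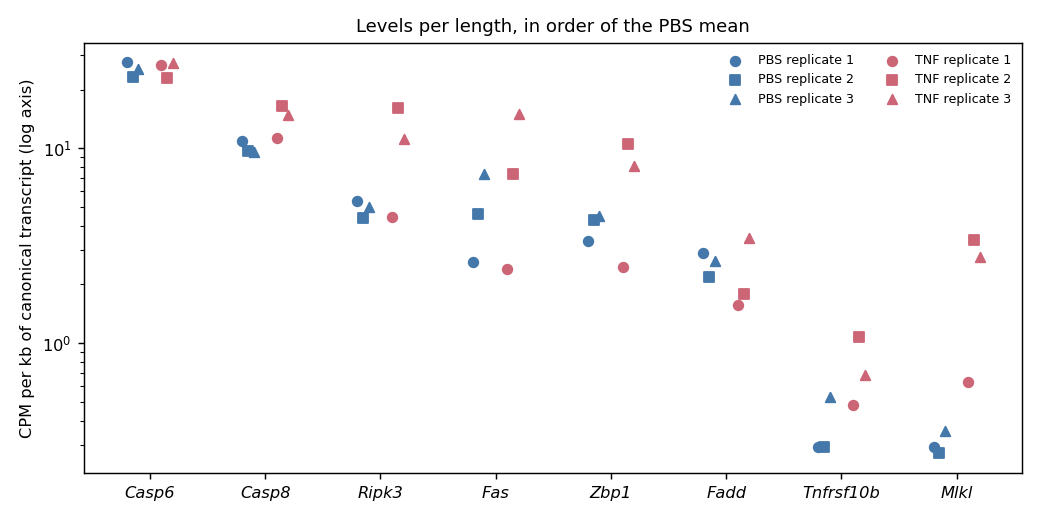
CPM per kb of canonical transcript (log axis) for each library, with genes in the order of their PBS mean, PBS in blue and TNF in red. Mlkl, at 0.272 to 0.352 CPM per kb in PBS, had 0.632, 3.38 and 2.78 CPM per kb in TNF replicates 1 to 3.

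The balance between the genes was read as ratios of these per-length levels within a library. Mlkl over Casp8 was 0.0271, 0.0283 and 0.0367 in PBS and 0.0561, 0.205 and 0.189 in TNF replicates 1 to 3, so all TNF libraries lay above all PBS libraries. Mlkl over Ripk3 likewise was 0.0547 to 0.0710 in PBS and 0.142, 0.211 and 0.250 in TNF. Ripk3 over Casp8 was 0.458 to 0.517 in PBS and 0.395, 0.968 and 0.757 in TNF, on both sides of the PBS range. Thus TNF replicate 1 shared the higher proportion of Mlkl with the other TNF libraries, at a lower value, and did not share that of Ripk3. These ratios are descriptions, since the genes were chosen with earlier results of these data known.

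The 8 genes fell into different patterns over the 6 libraries. Pearson r of log2 CPM was 0.94 between Mlkl and Ripk3, 0.97 between Mlkl and Casp8, 0.92 between Ripk3 and Zbp1 and 0.90 between Mlkl and Tnfrsf10b. It was -0.01 between Mlkl and Fadd and -0.10 between Mlkl and Casp6. Among 9166 genes with a mean of at least 5 CPM, those most like Mlkl were Rcn2, Dstn and Rhbdl2 (r 0.997 to 0.999), and those most like Ripk3 were Mmp15, Spint1 and Pgd (0.997 to 0.998). Zbp1 was most like Ptpn12, Elovl6 and Acat2 (0.994 to 0.998), and Casp8 most like Hadha, Psmd7 and Vps36 (0.996 to 0.998). Fas was most like Fibp, Mpzl1 and Asb6 (0.978 to 0.989), and Tnfrsf10b most like Abcd3, Hacd3 and Zbtb44 (0.983 to 0.989). Fadd had Smim14, Ccdc9b and Ift56 (0.946 to 0.974), and Casp6 had Rbms2, Insig2 and Fdxacb1 (0.946 or more). With 6 libraries in 2 groups, and 9166 genes to choose from, such high values describe these libraries only.

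The rest of the pathway was read from 4 lists of 67 other genes, of which 61 were tested. These lists too were chosen with earlier results of these data known, so their counts and medians are descriptions. With edgeR over all libraries 0 passed 5%, and at an unadjusted p under 0.05 there were 10 higher and 2 lower, against 8.25% and 4% of all genes. Limma-voom also called 0, with 11 of the 61 at an unadjusted p under 0.05, against 12.8%. After leaving out TNF replicate 1, 17 of 63 were higher and 2 lower, against 9.1% and 5.4% of all genes. DESeq2 called 5 higher, among them Tnfrsf12a, Tnf, Birc3 and Tnfaip3, and 0 lower, against 1.46% and 0.251%. The median log2 fold change of the 61 was 0.20, and 0.34 for the 63 without TNF replicate 1.

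Among 15 death ligands and receptors, 10 were tested, with a median log2 fold change of 0.51, and 1.37 without TNF replicate 1. In that fit 7 of 12 passed and were higher, against 9.1% of all genes. These were Tnf, Tnfrsf1b, Tnfrsf12a, Tnfrsf22, Tnfrsf23, Tlr3 and Tlr4, named after their values were seen. Tnfrsf1a, Tnfrsf21, Tnfrsf25, Tnfsf10 and Tnfsf15 did not pass, and Tnfrsf25 had a log2 fold change of -2.22. Tnfrsf1a, the TNF receptor with a death domain, had 65.3, 41.0 and 38.4 CPM after PBS and 29.8, 67.8 and 58.7 CPM after TNF (log2 fold change 0.11 ± 0.33 SE, with an adjusted p of 0.913 from edgeR), with wide overlap, and a log2 fold change of 0.41 without TNF replicate 1. Tnfrsf12a, the receptor of the ligand TWEAK, had 2.24, 3.47 and 3.09 CPM after PBS and 3.91, 14.7 and 21.7 CPM after TNF (2.19 ± 0.55 SE, adjusted p 0.270). Tlr4, the receptor of bacterial lipopolysaccharide, had 0.361, 0.400 and 1.03 CPM after PBS and 1.1, 2.84 and 3.30 CPM after TNF (2.01 ± 0.72 SE, adjusted p 0.331). Both Tnfrsf12a and Tlr4 were above PBS in every TNF library, with TNF replicate 1 just above, and without that library their log2 fold changes were 2.65 and 2.37. For Tlr4 this rests on 5, 6 and 14 counts after PBS and 13 counts in TNF replicate 1, which only the scaling places above PBS replicate 3. Likewise Tnfrsf12a had 31, 52 and 42 counts after PBS and 46 in TNF replicate 1, which only the scaling places above PBS replicates 2 and 3.

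Among 19 adaptors, kinases and chaperones, 18 were tested, with a median of 0.13. Without TNF replicate 1, 2 passed (higher), against 9.1% of all genes. These were the kinases Ikbke and Ikbkb, named after their values were seen. Ripk1, the kinase shared by the survival and death complexes, had 26.4, 27.9 and 28.4 CPM after PBS and 22.2, 35.5 and 30.4 CPM after TNF, so that its TNF libraries lay on both sides of PBS (0.09 ± 0.22 SE, edgeR adjusted p 0.893). Ikbkg, the regulatory subunit of the IKK complex, had 17.0 ± 2.43 CPM after PBS and 24.5 ± 4.06 CPM after TNF with no overlap (0.53 ± 0.23 SE, adjusted p 0.400). Its counts were 228, 294 and 202 after PBS and 233 in TNF replicate 1, which only the scaling places above PBS replicate 2. Without TNF replicate 1 the log2 fold changes were 0.28 for Ripk1 and 0.68 for Ikbkg.

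The list labelled brakes on the death complexes held 19 genes, among them some that can also favour death (Cyld, Spata2 and Itch). All 19 were tested and had differences in both directions, with a median of 0.05. Of these, 6 passed as higher and 1 as lower without TNF replicate 1, against 9.1% and 5.4% of all genes. The gene that was lower was Cflar, which encodes c-FLIP, the caspase-8 homologue that limits its activation. Cflar had 41.0, 53.9 and 47.9 CPM after PBS and 39.0, 28.3 and 22.5 CPM over TNF replicates 1 to 3, below PBS in every TNF library (log2 fold change -0.67 ± 0.24 SE, with an adjusted p of 0.331 from edgeR), and -0.88 without TNF replicate 1. In contrast Tnfaip3, the ubiquitin-editing enzyme A20, had 8.22, 7.61 and 8.89 CPM after PBS and 9.09, 26.3 and 31.9 CPM after TNF (1.45 ± 0.41 SE, adjusted p 0.278), and 1.84 without TNF replicate 1. Birc3, a ubiquitin ligase of RIPK1, had 9.02, 15.6 and 11.9 CPM after PBS and 12.5, 42.6 and 45.2 CPM after TNF (1.46 ± 0.44 SE, adjusted p 0.293), with TNF replicate 1 inside the PBS range, and 1.87 without it. Chmp2a, of the ESCRT-III machinery that repairs membranes, had 40.5, 40.8 and 47.8 CPM after PBS and 58.8, 65.1 and 76.7 CPM after TNF, with no overlap (0.64 ± 0.20 SE, adjusted p 0.297), and 0.74 without TNF replicate 1. On library totals alone, TNF replicate 1 (692 counts of 14769915) was below PBS replicate 3 (650 of 12747484) for Chmp2a.

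The executioner and mitochondrial arm had 14 genes, all tested, with a median of 0.30. Without TNF replicate 1, 2 passed as higher, among them Htra2, and 1 as lower (Parp1), against 9.1% and 5.4% of all genes. Htra2, a mitochondrial protease, had 17.6 ± 4.66 CPM after PBS and 31.6 ± 13.4 CPM after TNF (0.84 ± 0.34 SE, edgeR adjusted p 0.372), and Cycs, the gene of cytochrome c, had 15.9 ± 1.12 and 22.6 ± 2.58 CPM with no overlap (0.51 ± 0.21 SE, adjusted p 0.383). Parp1, a DNA repair enzyme cleaved by executioner caspases, had 34.2 ± 6.31 CPM after PBS and 20.1 ± 5.53 CPM after TNF, lower in every TNF library (-0.76 ± 0.25 SE, adjusted p 0.310). The log2 fold changes without TNF replicate 1 were 1.15 for Htra2, 0.49 for Cycs and -0.99 for Parp1.

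Genes with regulators that are known for some of the 8 were compared as a description. Of 19 interferon targets, 15 were tested, with a median log2 fold change of 1.15. Without TNF replicate 1, 15 of 17 were higher past 5%, against 9.1% of all genes. The median of the list relative to the PBS mean was -0.39 in TNF replicate 1 and 1.87 and 1.27 in TNF replicates 2 and 3, on the log2 scale with 0.5 CPM added. Gbp2, an interferon-induced GTPase, had 0.510, 48.7 and 37.7 CPM in the TNF libraries and 1.05 ± 0.379 CPM after PBS. The immunoproteasome subunits Psmb8 and Psmb9 had 40.2 ± 24.4 and 14.5 ± 3.66 CPM after TNF against 11.3 ± 2.47 and 7.39 ± 0.978 CPM after PBS. Of 14 p53 targets, all tested, the median was 0.99, and 8 were above PBS in every TNF library, against 9.07% of tested genes. TNF replicate 1 was also higher for this list, with a median of 0.44 relative to the PBS mean, beside 1.17 and 0.96 in TNF replicates 2 and 3. This value depends on the scaling, whose factor was lowest in TNF replicate 1 (0.798). On library totals alone, that library lay inside the PBS range for Cdkn1a and Perp. Eda2r, a receptor of the TNF receptor family, had 15.7, 21.7 and 9.50 CPM after TNF against 4.51 ± 1.20 CPM after PBS. Cdkn1a, the cell cycle inhibitor p21, had 46.8, 114 and 111 CPM after TNF against 34.8 ± 8.70 CPM after PBS, and Perp 167 ± 47.2 against 81.7 ± 9.58 CPM. The edgeR adjusted p was 0.270 for Gbp2, Psmb8, Eda2r, Cdkn1a and Perp and 0.278 for Psmb9. Leaving out TNF replicate 1, the log2 fold change was 5.37 for Gbp2, 2.28 for Psmb8, 1.16 for Psmb9, 1.82 for Eda2r, 1.71 for Cdkn1a and 1.27 for Perp. In the same fit 8 of the 14 p53 targets passed 5% as higher, against 9.1% of all genes. Of 8 genes of the ATF4 and CHOP axis, which can also drive Tnfrsf10b, 7 had a fold change below 0 (median -0.44), and Chac1 had 24.2 ± 18.0 CPM after PBS and 5.69 ± 6.88 CPM after TNF (edgeR adjusted p 0.402), with a log2 fold change of -2.11, and -3.83 without TNF replicate 1. Whether any of these lists shares a regulator with the 8 genes in PCs was not tested.

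**Figure D4:**
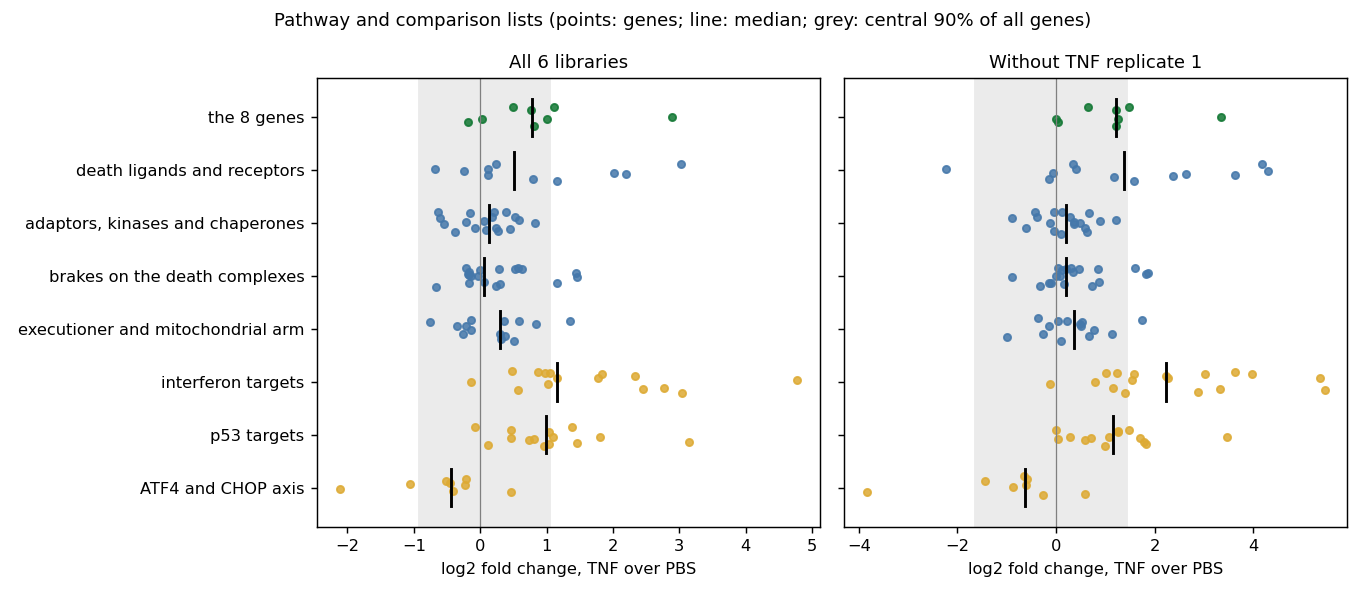
Log2 fold changes (TNF over PBS) of the 8 genes (green), the 4 pathway lists (blue) and the 3 comparison lists (yellow), over all libraries (left) and without TNF replicate 1 (right). Each point is a gene, the black line is the median of the list, and the grey band holds the central 90% of all genes. The medians of the adaptors (0.13 and 0.20) and brakes (0.05 and 0.19) stay near 0, and that of the interferon targets moves from 1.15 to 2.24.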

How the data were processed

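RNA of sorted PCs from Ifnar1 knockout mice injected with PBS (3 libraries) or TNF (3 libraries) was sequenced (Element AVITI, single-end). The authors deposited raw counts per Ensembl gene, 1 column per library. The submitters' processing notes name FastQC, Trimmomatic 0.39, STAR 2.7.10a, DESeq2 and mm39; the counting tool, annotation release, use of strand and treatment of shared reads are missing from the sources used here. Of 55414 identifiers, 54749 matched GENCODE for GRCm39, the same assembly as mm39. Symbols, positions and lengths came from there.

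Genes were filtered with filterByExpr (minimum count 10, minimum total 15), scaled with TMM factors and tested with edgeR 4.0.16 in R 4.3.3 (two-sided quasi-likelihood test, group as the only term, Benjamini-Hochberg over all tested genes). SE was taken as the log2 fold change over the root of F. The limit for a gene without counts was 3 counts, or 0.147 to 0.255 CPM by library, for counting error only. Alternatives were RLE, library-size and upper-quartile scaling, no filter, a mean of at least 5 CPM, leaving out each library, a replicate block, DESeq2 1.42.0, limma-voom (limma 3.58.1) with and without sample weights, and 1% as threshold. The scripts were tested on simulated data. The 8 genes and all lists were chosen with earlier results of these data known. Named pathway genes were Ripk1, Tnfrsf1a, Cflar and other direct partners, and up to 4 per pathway list (3 per comparison list) with the smallest unadjusted p under 0.05. Some genes of this rule are not reported here. Likeness used log2(CPM + 0.5).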

Additional observations from a re-analysis of the deposited data

How the results depend on the processing

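The count of 0 genes past 5%, for the 8 genes, for the 61 pathway genes and for all 13026, stayed 0 in edgeR with each of the 3 other scalings (RLE, upper quartile, library size), a mean of at least 5 CPM (which dropped Tnfrsf10b), the 1% threshold and the replicate block, and with limma-voom. With no low-count filter it became 2 (Mlkl and Ripk3), 7 and 690. With DESeq2 it became 1, 5 and 253, and with sample weights 3, 10 and 1501. Leaving out 1 library gave 0 to 4 of the 8 genes, 0 to 19 pathway genes and 0 to 1980 of all genes, and the highest counts came without TNF replicate 1, the others all giving 0. Of the fold changes of the 8 genes under these settings, 101 kept their direction and their side of 5%, 10 passed 5% in the same direction, and 8 turned, all of Casp6 or Fadd. Casp6 was -0.0959 on plain library sizes, -0.0335 with upper-quartile scaling and -0.0133 with no filter. Leaving out 1 library gave -0.0461 to 0.0890 for Casp6 (-0.0218 without PBS replicate 3 and -0.0242 without TNF replicate 3) and -0.612 to 0.0358 for Fadd, which was 0.00646 with sample weights. The causes were not tested. Same-numbered PBS and TNF libraries did not deviate together (r of -0.01, -0.07 and 0.03), beside -0.06 to 0.07 for differently numbered ones. With 3 libraries per group this check cannot exclude a pairing, and the labels do not say whether the numbers pair the libraries. With the replicate block 1 of the 8 genes had an unadjusted edgeR p under 0.05 instead of 3. Depth limits Mlkl and Tnfrsf10b most, with 13 to 23 counts per PBS library.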

Other observations

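Some scarce genes of the pathway are given here as values, chosen after their values were seen. Tnf and Tnfrsf22 did not pass the low-count filter of edgeR over all 6 libraries. Tnf itself had 0.577, 0.133 and 0.661 CPM after PBS and 0.680, 8.07 and 9.99 CPM over TNF replicates 1 to 3, so that TNF replicate 1 was barely above PBS. Its counts were 8, 2 and 9 after PBS and 8 in TNF replicate 1, which only the scaling places above PBS. Tnf passed 5% with DESeq2 (adjusted p 0.00129), where Tnfrsf22 had an adjusted p of 0.224. Tnfrsf22, a mouse decoy receptor for TRAIL, had 0 to 0.147 CPM after PBS and 0, 1.66 and 2.01 CPM over TNF replicates 1 to 3. The related decoy gene Tnfrsf23 was tested and had 1.30, 0 and 0.514 CPM after PBS and 0, 7.73 and 7.01 CPM after TNF (3.02 ± 1.40 SE on the log2 scale, edgeR adjusted p 0.429). Fasl, the ligand of FAS, had no count in any library, which allows up to 0.147 to 0.255 CPM per library, and Tnfsf10, the ligand of the TRAIL receptor, had 16.1 to 22.1 CPM after PBS and 14.3 to 29.4 CPM in TNF.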
